A study of Mus musculus with 18 samples.

Results

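The genes described here encode the proteins of the mitochondrial ribosome. They were chosen by name alone, as every gene whose mouse symbol begins with Mrps or Mrpl followed by a number and does not end in "-ps". The rule found 81 genes among the 43432 gene identifiers of the count tables, 32 named Mrps and 49 named Mrpl. Of these, 77 are annotated as protein coding, 29 named Mrps and 48 named Mrpl. Counts and medians given below for the small and the large subunit follow these names only. The place of each protein in the ribosome was not checked, and a name can differ from it. The other 4 (Mrpl23-ps1, Mrps36-ps1, Mrps36-ps2 and Mrps36-ps3) are processed pseudogenes that the wording of the rule keeps. Mrpl33 was not analysed here.

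RNA was sequenced from intestinal stem cells of mice 8 to 16 weeks old, in 18 libraries of 5000 to 10000 cells sorted by flow cytometry. All mice had been injected with tamoxifen. They were either wild type or carried a conditional knock-out of Dlg1, a scaffold protein of cell polarity, and tissue was taken 48 hours (called 2 days here) or 14 days after the injection. There were 4 wild-type and 4 knock-out libraries at 2 days, and 5 of each at 14 days. The labels name neither the Cre driver nor the deleted exons, and they do not say whether replicates were separate animals. The p-values therefore measure only the spread between these libraries, which may in part be technical.

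The mitochondrial ribosome translates the few messages of the mitochondrial genome, which encode subunits of the respiratory chain and ATP synthase. Its 2 rRNAs, mt-Rnr1 and mt-Rnr2, come from the mitochondrial genome, whereas all of its proteins are encoded in the nucleus, made in the cytosol and imported. Some descend from bacterial ribosomal proteins and others were added in the mitochondrial lineage. Intestinal stem cells are known to depend on mitochondrial respiration.

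The 77 protein-coding genes lie on 17 chromosomes, so they share no common locus. They are short: the merged exons of a member had a median length of 2255 bases (range 607 to 8631), against 3527 bases over the protein-coding genes of the tables. For 18 of the 77 (23.4%), a protein-coding gene on the other strand starts within 1000 bases in head-to-head orientation, against 1491 of 22028 protein-coding genes (6.77%). Examples are Mrps12 with Sars2, a mitochondrial seryl-tRNA synthetase, Mrpl40 with the histone chaperone Hira, Mrpl32 with the proteasome subunit Psma2, and Mrpl49 with Fau, which encodes a protein of the cytosolic ribosome. The 22028 genes include genes that were not tested here, and the share of such pairs among tested genes was not computed.

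Promoters are shown because the members share sequence features there that the naming rule did not use. RefSeq windows of GRCm38.p6, from 250 bases before to 50 bases after a start, matched 68 of the 77 genes with 74 windows. A set of 3 short motifs was searched on both strands, where matches may overlap one another: the NRF1-like GCGC-N-TGCGC (N is any base), the ETS-like CCGGAAG and the YY1-like AAGATGGC. NRF1, ETS factors such as Gabpa, and YY1 are known regulators of nuclear genes for mitochondria. At least 1 of the 3 was found in 42 of the 74 windows (56.8%), against 14.7% of all 32851 windows and 26.5% of the 13816 windows of genes tested here. The NRF1-like motif was in 17.6% of the members' windows (4.60% of all windows, 9.14% of those of tested genes), the ETS-like motif in 33.8% (8.86% and 16.5%) and the YY1-like motif in 16.2% (2.75% and 4.15%). The GC box GGGCGG was in 52.7% of the members' windows and 59.4% of the windows of tested genes, and the TATA box TATAAA in 6.76% and 7.77%. A match describes letters only, and binding was not measured.

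The promoters of 5 members with 2 of the 3 motifs follow, 5′ to 3′ on the strand of the gene, from 250 bases before to 30 bases after the start, with the motifs in capitals. The first 4 were the first by symbol among the members with the most kinds of motif, and Mrps21 led the genotype comparison at 2 days. They lie at chr7:105811058-105811337 (minus strand), chr13:14613008-14613287 (minus strand), chr14:57825989-57826268 (plus strand), chr7:28741792-28742071 (minus strand) and chr3:95871485-95871764 (minus strand).
Mrpl17: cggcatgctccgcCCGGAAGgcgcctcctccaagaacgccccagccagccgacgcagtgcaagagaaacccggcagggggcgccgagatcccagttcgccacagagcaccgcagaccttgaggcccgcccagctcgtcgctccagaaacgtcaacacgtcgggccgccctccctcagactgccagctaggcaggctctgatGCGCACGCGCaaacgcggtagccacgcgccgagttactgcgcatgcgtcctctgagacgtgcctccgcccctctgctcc
Mrpl32: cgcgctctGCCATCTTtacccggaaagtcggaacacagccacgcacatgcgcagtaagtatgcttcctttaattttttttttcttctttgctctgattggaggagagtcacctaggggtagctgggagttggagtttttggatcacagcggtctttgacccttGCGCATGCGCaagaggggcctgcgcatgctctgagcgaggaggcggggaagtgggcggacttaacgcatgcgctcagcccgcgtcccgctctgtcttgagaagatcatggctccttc
Mrpl57: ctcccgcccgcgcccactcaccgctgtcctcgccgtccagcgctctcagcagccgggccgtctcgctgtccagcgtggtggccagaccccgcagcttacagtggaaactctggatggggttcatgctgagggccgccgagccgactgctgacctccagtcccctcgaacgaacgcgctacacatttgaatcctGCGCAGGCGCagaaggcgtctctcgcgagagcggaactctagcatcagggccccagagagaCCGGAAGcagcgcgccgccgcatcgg
Mrps12: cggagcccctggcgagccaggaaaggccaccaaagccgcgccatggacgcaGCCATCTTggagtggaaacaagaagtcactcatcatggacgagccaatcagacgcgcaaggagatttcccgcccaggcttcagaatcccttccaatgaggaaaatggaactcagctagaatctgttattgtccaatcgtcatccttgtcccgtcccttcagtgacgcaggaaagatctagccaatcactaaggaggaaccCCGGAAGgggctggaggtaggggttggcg
Mrps21: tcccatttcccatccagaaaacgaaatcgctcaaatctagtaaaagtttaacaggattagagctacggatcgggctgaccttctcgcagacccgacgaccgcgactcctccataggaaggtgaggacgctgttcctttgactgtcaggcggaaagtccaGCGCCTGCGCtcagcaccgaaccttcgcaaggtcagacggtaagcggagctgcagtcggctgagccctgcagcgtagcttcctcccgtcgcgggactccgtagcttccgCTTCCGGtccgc
The ETS-like match lies just after the start in Mrpl57, Mrps12 and Mrps21, and far upstream in Mrpl17.

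The next 3 promoters belong to the members that led the other comparisons: Mrpl40 (knock-out over wild type at 14 days), Mrpl55 (higher at 14 than at 2 days) and Mrpl39 (lower at 14 than at 2 days). They lie at chr16:18876608-18876887 (minus strand), chr11:59202236-59202515 (plus strand) and chr16:84735215-84735494 (minus strand).
Mrpl40: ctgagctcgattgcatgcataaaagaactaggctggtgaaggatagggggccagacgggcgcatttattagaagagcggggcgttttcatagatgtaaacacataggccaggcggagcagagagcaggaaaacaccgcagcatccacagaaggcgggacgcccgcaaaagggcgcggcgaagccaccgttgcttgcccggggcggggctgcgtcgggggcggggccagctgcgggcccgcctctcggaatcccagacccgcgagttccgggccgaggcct
Mrpl55: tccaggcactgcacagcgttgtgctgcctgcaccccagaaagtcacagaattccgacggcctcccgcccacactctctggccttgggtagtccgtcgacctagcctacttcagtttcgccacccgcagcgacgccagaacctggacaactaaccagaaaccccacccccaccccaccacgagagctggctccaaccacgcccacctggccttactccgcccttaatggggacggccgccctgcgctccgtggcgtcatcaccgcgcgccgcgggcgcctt
Mrpl39: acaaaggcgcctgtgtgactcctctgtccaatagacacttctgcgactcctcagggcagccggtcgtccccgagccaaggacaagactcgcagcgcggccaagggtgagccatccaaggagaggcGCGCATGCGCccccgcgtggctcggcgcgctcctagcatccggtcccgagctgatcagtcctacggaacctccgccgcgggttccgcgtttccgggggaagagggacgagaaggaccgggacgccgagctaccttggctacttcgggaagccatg
The windows of Mrpl40 and Mrpl55 hold none of the 3 motifs, and that of Mrpl39 holds an NRF1-like match. Windows were placed by RefSeq starts. By the gene coordinates given further on, that of Mrpl40 lies mostly and that of Mrpl39 wholly inside the gene. These 2 printed windows thus hold few or none of the bases before the 5′ end of the gene. Part of the printed window of Mrpl32 also lies inside its gene, whose 5′ end is at 14613165, and its NRF1-like match is in that part.

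The 2 day libraries held 14.8 to 40.5 M counts each (M, 1000000), and the 14 day libraries 11.1 to 15.7 M. Dlg1, the targeted gene, stood at 57.1 to 82.4 CPM (counts per 1000000 of the TMM-scaled library) in wild type and 45.6 to 68.4 CPM in knock-out libraries at 2 days, and at 54.0 to 75.1 and 36.9 to 85.4 CPM at 14 days, so counts over the whole gene did not separate the genotypes. Arhgap31, named with Dlg1 in the title of the series, had groups that did not overlap: 1.98 to 7.02 against 0.287 to 0.984 CPM at 2 days, and from 5.8 to 11.5 against 0.534 to 2.56 CPM at 14 days. Neither of its differences passed the edgeR test (adjusted p = 0.866 and 0.145). All 15 stem cell markers, among them Lgr5 and Olfm4, had a mean of at least 1 CPM in each group, and they summed to 6190.8 to 8021.3 CPM at 2 days and 2286.9 to 3302.5 CPM at 14 days. Enterocyte, goblet and Paneth cell markers were present in every group. Immune markers summed to 71.2 CPM at most, stromal and endothelial markers to 20.3 CPM and red cell markers to 1.61 CPM, and the haemoglobin gene Hba-a2 was at 0 in every library.

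A group of 4 libraries stood apart in ways that touch the results. Mitochondrially encoded genes took 26.3% of wild-type library 3 at 14 days, against 6.21 to 11.6% in the other wild-type libraries of that time, and it had the highest sums there of enterocyte (5135.1 CPM), goblet (5794.3 CPM) and Paneth (13854 CPM) markers. A set of 6 gene models of satellite-like sequence took 46.5% of knock-out library 5 at 14 days and at most 9.96% of any other library. Mitochondrially encoded genes took 49.1% of wild-type library 1 at 2 days. Knock-out library 3 at 2 days had the highest mean level of the members in that table.

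Taken as levels per kilobase of merged exons, the 76 protein-coding members that passed the filter on low counts in the fit of all libraries had a median of 20.5 CPM per kb. The median was 12.3 over the 29 genes named Mrps and 22.6 over the 47 named Mrpl. The range between the highest and the lowest of these members was 532-fold.

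The highest was Mrpl34, a large-subunit protein, at 93.7 CPM per kb over all libraries. Mrpl12, which forms the stalk that recruits translation factors, followed at 80.0 CPM per kb. Mrps28 (70.5), Mrpl28 (64.0) and Mrpl54 (62.9 CPM per kb) came next. In wild-type libraries at 2 days Mrpl34 stood at 42.0 ± 11.8 and Mrpl12 at 43.4 ± 13.2 CPM per kb (SD, n = 4), so these neighbours in the order did not differ beyond their spread. The order also depends on the length used: 4 of the 5 highest stayed among the first 5 with the length of the longest transcript, and Mrps28 moved to rank 7.

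At the low end, Mrps5 (4.76), Mrps10 (4.53), Mrps30 (4.47), Mrps36 (4.21), Mrpl48 (3.50) and Mrps34 (3.20 CPM per kb) were the lowest protein-coding members above 1 CPM per kb; these 6 were picked for naming after their values were seen. Mrpl23, a protein at the exit of the peptide tunnel, had 0.176 CPM per kb and Mrpl53 0.0726 CPM per kb. Mrpl53 had no count in any wild-type library at 2 days and at most 3 counts in any library. A count of 0 allows up to 3 counts, by counting error alone. Mrpl53 shares 88.0% of its exon length with Gm42688, and no source used here gives the counting rule for such overlaps. The 3 Mrps36 pseudogenes had 0 to 7 counts in every library, while Mrps36 itself had 22 to 168.

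At 2 days the members' differences between the genotypes lay on both sides of 0, and no member passed the test. The edgeR quasi-likelihood test, with p-values adjusted by Benjamini-Hochberg over all 13031 genes tested, called no gene (0.0% higher and 0.0% lower at an adjusted p under 0.05). DESeq2 called 13 genes, none of them a member, and limma voom called 0. The filter on low counts kept 74 of the 81 members, leaving out Mrpl53, Mrpl23, Mrps34 and the 4 pseudogenes. Of these 74, 44 had a positive log2 fold change, and their median was 0.11 against 0.01 over all genes tested, 51.0% of which were positive. Before adjustment, 4 members passed p under 0.05, all with higher values in the knock-out (2.72% of all genes did so) and none with lower values (2.19%).

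**Figure D1:**
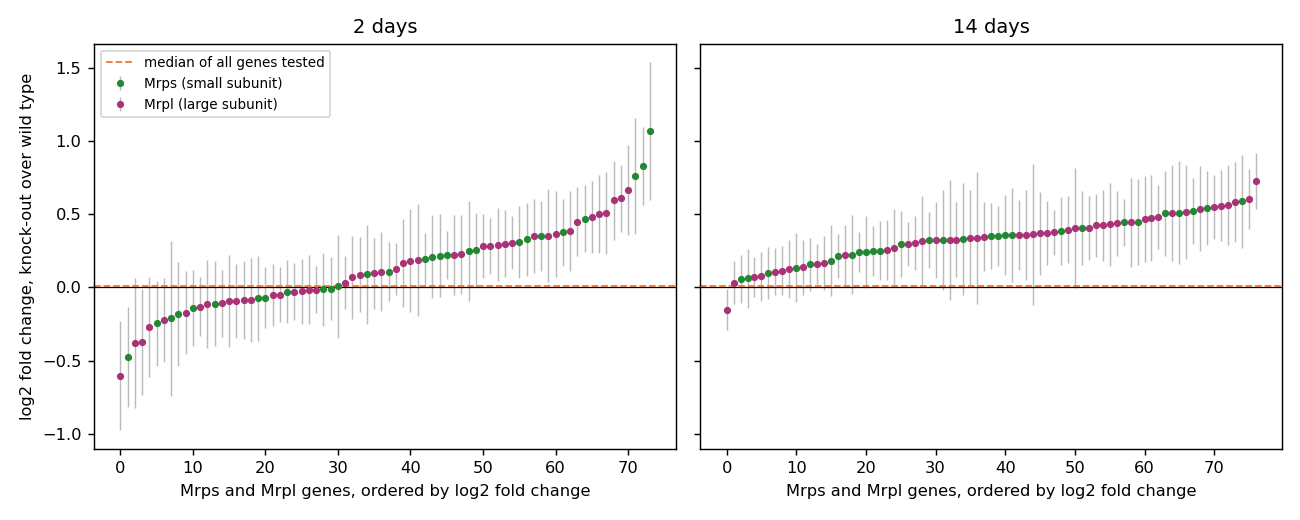
Log2 fold change of each Mrps (green) and Mrpl (purple) gene, knock-out over wild type, with its standard error, ordered by size, at 2 days (left, 74 genes) and 14 days (right, 77 genes). The dashed line is the median of all genes tested. At 14 days 76 of the 77 points lie above 0, at 2 days 44 of 74.

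Mrps21, a small-subunit protein encoded on chromosome 3 (95862634 to 95871519, minus strand), had the smallest p at 2 days. Its wild-type libraries stood at 7.37, 10.7, 11.6 and 13.7 CPM and its knock-out libraries at 15.2, 19.7, 23.9 and 17.8 CPM. All knock-out libraries lay above all wild-type libraries. The log2 fold change was 0.83 ± 0.27 (SE), with an adjusted p of 0.866 in edgeR. An exact two-sided permutation test of this gene alone gave p = 0.0286, the smallest that 4 against 4 libraries allow.

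Mrpl54, a large-subunit protein encoded on chromosome 10 (81264713 to 81266934, minus strand), had 17.1, 15.1, 19.0 and 13.2 CPM in wild type and 19.2, 30.7, 23.2 and 24.6 CPM in knock-out libraries. The groups did not overlap, but the lowest knock-out library was close to the highest wild-type library. Its log2 fold change was 0.61 ± 0.23, with an adjusted p of 0.866.

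Mrps36 is encoded on chromosome 13 (100735955 to 100744659, minus strand). It is named as a ribosomal protein but is also known as Kgd4, a subunit of the 2-oxoglutarate dehydrogenase complex. It had 2.23, 1.75, 1.99 and 1.41 CPM in wild type and 4.36, 4.07, 4.0 and 3.01 CPM in knock-out libraries, again without overlap. Its log2 fold change of 1.07 ± 0.47 was the largest of any member at 2 days, with an adjusted p of 0.866.

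These were the only 3 of the 74 members whose groups did not overlap with the knock-out higher, against 2.0% of all genes tested, and there was none with the knock-out lower (1.93%). Mrpl14 (log2 fold change 0.59 ± 0.27) and Mrpl41 (0.67 ± 0.31), both of the large subunit, were the next by p and their groups overlapped.

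The 5 members with the smallest p among those with lower values in the knock-out were Mrpl16, a large-subunit protein (log2 fold change -0.60), Mrps25 (-0.47), Mrpl27 (-0.37), Mrpl51 (-0.38) and Mrps23 (-0.25), all with an adjusted p of 0.866 or more. Mrpl16 had 112, 33.3, 36.6 and 37.2 CPM in wild-type and 33.0, 36.5, 48.4 and 26.3 CPM in knock-out libraries. The high value was that of wild-type library 1, the library with 49.1% of its counts in mitochondrially encoded genes. Without that library the log2 fold changes of Mrpl16, Mrpl27, Mrpl51 and Mrps23 were 0.015, 0.066, 0.29 and 0.10, and that of Mrps25 was -0.035. Mrps25 shares 69.8% of its exon length with the nuclear receptor gene Nr2c2, so its counts are uncertain.

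Single libraries also set the members' median at 2 days. It was 0.19, with 65 members positive, without wild-type library 1, and -0.02, with 36 positive, without knock-out library 3. In the knock-out libraries, the number of members above the wild-type mean was 46, 40, 70 and 37 of 74. Enterocyte markers were positive in 12 of 12 at 2 days (median log2 fold change 1.45) and summed to 529 to 765 CPM in wild-type and 551 to 3656 CPM in knock-out libraries. The highest sum was that of knock-out library 1, followed by library 4 (1194 CPM), while knock-out libraries 2 and 3 lay within the wild-type range. Goblet cell markers were positive in 7 of 7 (median 0.63) and stem cell markers in 4 of 15 (median -0.14). Paneth cell markers were positive in 4 of 7 (0.20), tuft cell markers in 4 of 5 (0.80) and enteroendocrine markers in 3 of 7 (-0.04). Their part in the members' values was not tested. Among other lists at 2 days, nuclear subunits of the respiratory chain had a median of 0.24 (39 of 47 positive) and cytosolic ribosomal proteins 0.30 (67 of 78), while genes of the mitochondrial genome had -0.24 (9 of 25). In bulk samples, fewer cells of a type and less RNA per cell cannot be told apart.

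At 14 days nearly all members had higher mean values in the knock-out than in wild type, and no single one passed the test. Of the 77 members tested, 76 had a positive log2 fold change, against 51.0% of the 13991 genes tested, and their median was 0.35 against 0.01 over all genes. The one exception was Mrpl19 (-0.15 ± 0.14), which shares 36.0% of its exon length with Gcfc2. No gene was called (0.0% higher and 0.0% lower, edgeR with Benjamini-Hochberg adjustment), DESeq2 called 1, not a member, and limma voom called 0. Before adjustment, 8 members passed p under 0.05 with higher values (2.44% of all genes) and none with lower values (1.55%). The protein-coding genes named Mrps (29 of 29 positive, median 0.32) and those named Mrpl (46 of 47 positive, median 0.36) had similar medians.

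Mrpl40, a large-subunit protein encoded on chromosome 16 (18872018 to 18876862, minus strand), had the smallest p and the largest log2 fold change of the members at 14 days. Its wild-type libraries stood at 53.1, 46.6, 63.4, 51.6 and 40.5 CPM and its knock-out libraries at 114, 67.3, 102, 82.1 and 52.9 CPM. Of the knock-out libraries, 4 lay above every wild-type library, and library 5 lay within the wild-type range. The log2 fold change was 0.73 ± 0.19, with an unadjusted p of 0.00203 and an adjusted p of 0.957 in edgeR. The exact permutation test of this gene alone gave p = 0.0238, where 5 against 5 libraries can reach 0.00794.

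Mrpl22, a protein that lines the peptide exit tunnel, had 27.4, 20.6, 25.5, 31.1 and 19.7 CPM in wild type and 47.0, 33.4, 46.9, 36.8 and 22.5 CPM in the knock-out. Its log2 fold change was 0.60 ± 0.20, with an adjusted p of 0.957. Here too only knock-out library 5 reached into the wild-type range.

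Mrps26, a small-subunit protein, had 41.4, 39.4, 43.4, 38.2 and 34.3 CPM in wild type and 64.6, 55.8, 54.9, 55.0 and 33.6 CPM in the knock-out. Knock-out library 5 was the lowest of all 10 libraries, and the other 4 lay above every wild-type library. Its log2 fold change was 0.44 ± 0.16, with an adjusted p of 0.957.

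Mrpl36 (0.55 ± 0.22) and Mrpl1 (0.38 ± 0.15), both of the large subunit, followed with the same adjusted p of 0.957. Other members with a known site or role had similar log2 fold changes at 14 days: 0.33 for Mrpl12 of the stalk, 0.36 for Mrps12 at the decoding site, 0.17 for Mrpl45, which anchors the ribosome to the inner membrane, and 0.47 for Mrpl58, a peptidyl-tRNA hydrolase built into the large subunit. Mrpl10, which carries Mrpl12 on the stalk, had 0.11. The 3 paralogues Mrps18a, Mrps18b and Mrps18c had 0.29, 0.13 and 0.59. None had an adjusted p below 0.957.

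**Figure D2:**
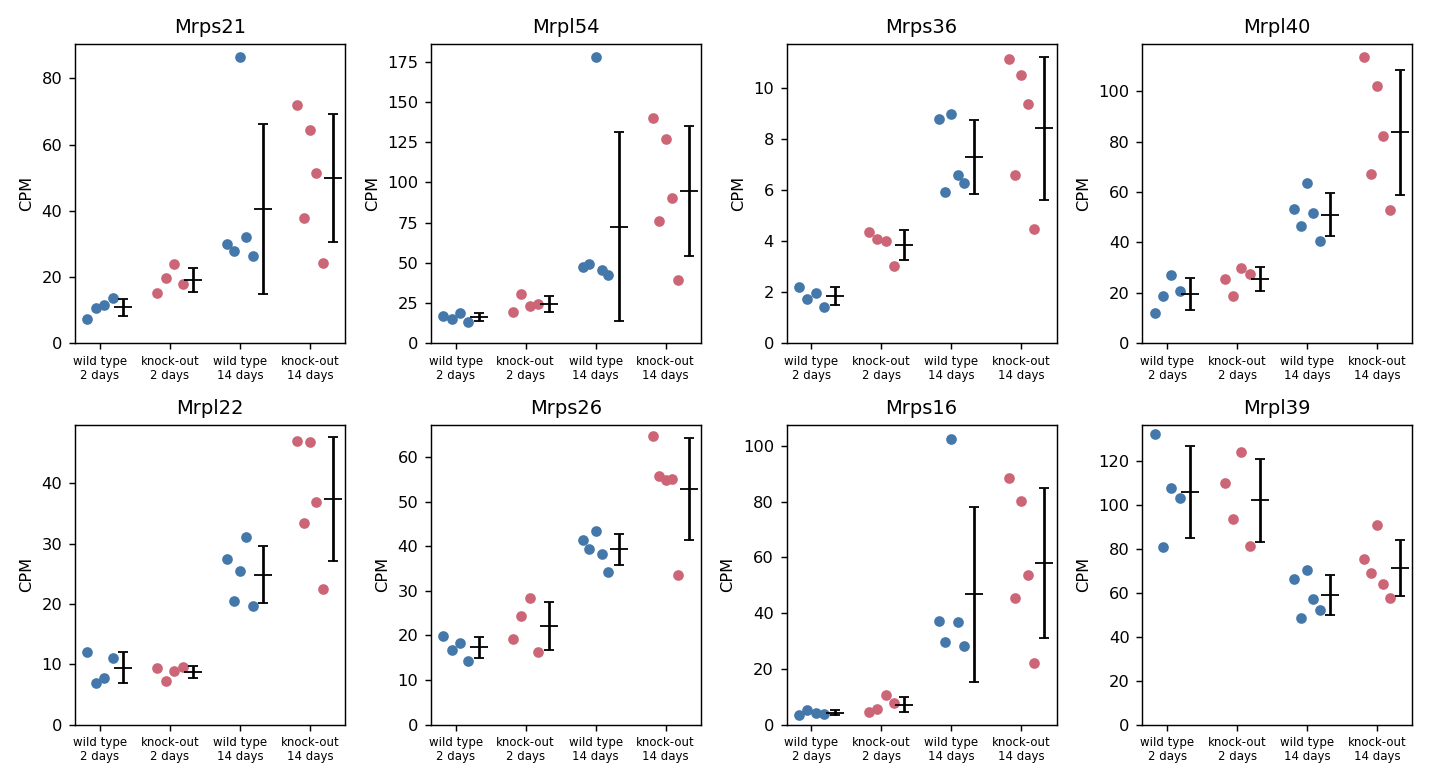
CPM of 8 Mrps and Mrpl genes in each library of the 4 groups (points, wild type blue, knock-out red), with the mean and SD beside each group (n = 4 at 2 days, 5 at 14 days). For Mrps21, Mrpl54 and Mrps36 the genotypes are apart at 2 days and overlap at 14 days, and Mrpl39 is the one gene shown with lower values at 14 days.

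At 14 days wild-type library 3 was the highest of its group in 66 of the 77 members, and knock-out library 5 was the lowest of its group in 74. Knock-out library 1 was the highest of its group in 45. In knock-out libraries 1 to 4, 75, 69, 76 and 67 of 77 members lay above the wild-type mean, whereas in library 5 only 2 did. Library by library, the median log2 difference from the wild-type mean was 0.80, 0.18, 0.74, 0.33 and -0.35. No member had groups that did not overlap (0.207% of all genes did so with the knock-out higher and 0.343% with the knock-out lower).

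Leaving out wild-type library 3 gave a members' median of 0.56 and 50 members at an unadjusted p under 0.05, and the share of all genes at that p went from 3.99% to 12.2%. Leaving out knock-out library 5 gave 0.48 and 36 members, with 6.96% of all genes. Other omissions lowered the number: it was 3 without wild-type library 2 or 5 or knock-out library 1, and 4 without wild-type library 4 or knock-out library 3, the last with the lowest median (0.22). The share of all genes was 2.22 to 2.73% in these 5 fits. No member was called in any of them. The column names of the 14 day table carry the letters B or J, which no source used here explains. The mean log2 level of the members was 0.54 higher in the knock-out among the B libraries (2 against 2) and 0.15 higher among the J libraries (3 against 3), which include both of these libraries. Mitochondrially encoded genes took 6.21 to 26.3% of the counts in wild type and 7.08 to 24.2% in the knock-out at 14 days, with wild-type library 3 and knock-out library 1 at the top and knock-out library 5 lowest of its group. The part of this share in the members' values was not tested.

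**Figure D3:**
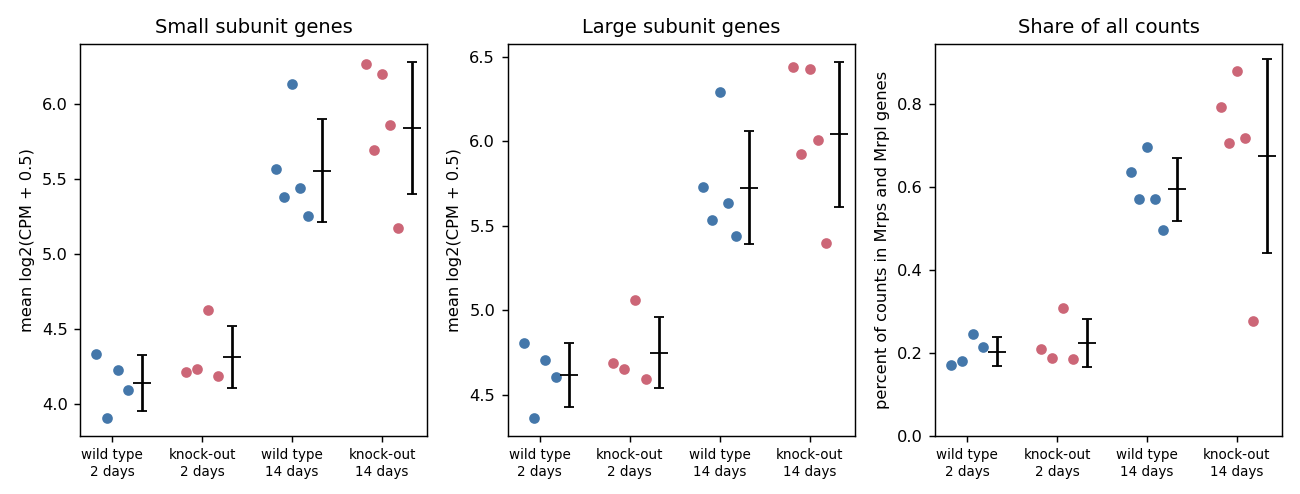
Mean log2(CPM + 0.5) of protein-coding genes named Mrps (left) and Mrpl (middle), titled by subunit, and the percentage of all counts in Mrps and Mrpl genes (right). Points are libraries, with the mean and SD beside each group. The groups of 14 days lie above those of 2 days, with 1 exception on the right. There knock-out library 5 has 0.276% of its counts in these genes and lies below knock-out library 3 of 2 days at 0.309%. Satellite-like gene models took 46.5% of the counts of knock-out library 5 and are part of its total.

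Transcript length moved with the genotype difference. At 14 days the median log2 fold change of other protein-coding genes was 0.39 for merged exons of up to 1000 bases, 0.21 for over 1000 to 2000, 0.02 for over 2000 to 3500, -0.02 for over 3500 to 5000 and -0.03 above 5000 bases. The members stood at 0.42, 0.38, 0.31, 0.38 and 0.25 in the same classes, with 8, 22, 22, 11 and 13 genes. Members of up to 1000 bases were thus level with other genes of their length, and longer members were above them. At 2 days the members (0.55, 0.17, 0.09, 0.04 and -0.01) lay close to the other genes (0.27, 0.19, 0.08, 0.01 and -0.06) above 1000 bases. With a smooth trend on exon length taken out of each library, the members' median was 0.24 at 14 days, with 71 of 77 positive, and 0.02 at 2 days, with 38 of 74 positive.

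**Figure D4:**
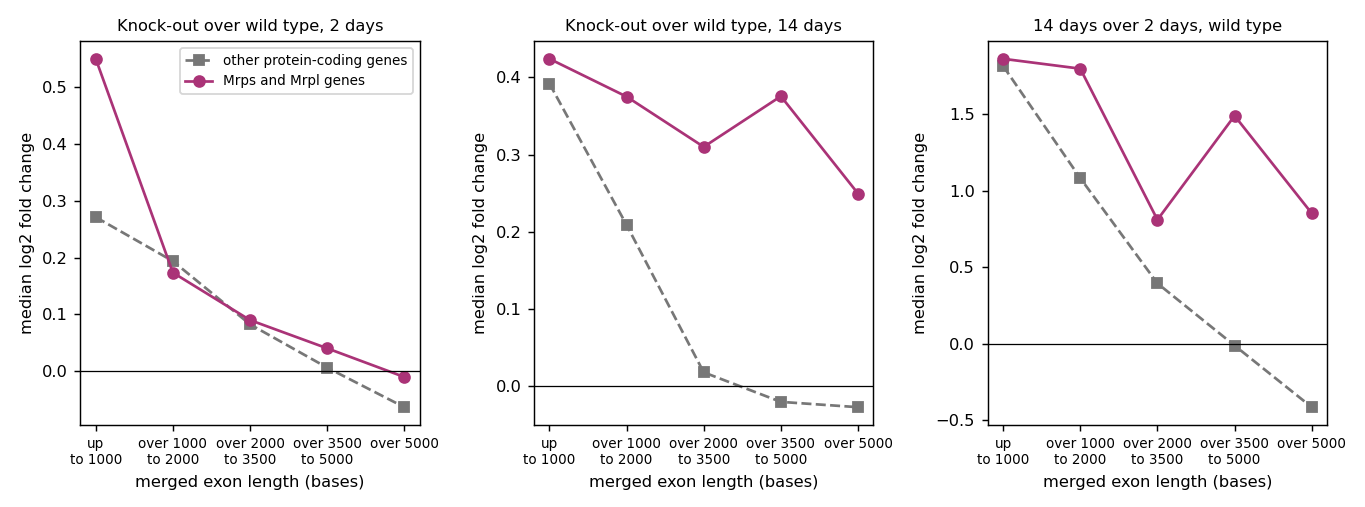
Median log2 fold change of Mrps and Mrpl genes (circles) and of other protein-coding genes tested (squares) in 5 classes of merged exon length, for knock-out over wild type at 2 and at 14 days and for 14 over 2 days in wild type. Medians of other genes are lower for longer genes in each panel, and at 14 days the longer Mrps and Mrpl genes stay above them.

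Other genes of mitochondrial translation, from lists chosen with earlier results of these data known, did not share one value at 14 days, and none of them was called. The 5 mitochondrial ribosome proteins with other names (Dap3, Ptcd3, Chchd1, Aurkaip1 and Gadd45gip1) were all positive, with a median of 0.28. Subunits of the respiratory chain and ATP synthase encoded in the nucleus had a median of 0.37 (41 of 47 positive) and genes of the mitochondrial genome 0.44 (18 of 22). Cytosolic ribosomal proteins had 0.27 (69 of 81). Ribosome assembly and rRNA modification factors stood at 0.01 (14 of 25), with Ddx28 at -0.59 and Mettl15 at 0.60. Translation factors stood at 0.04 (9 of 12), aminoacyl-tRNA synthetases at 0.02 (10 of 20), and mitochondrial transcription and RNA stability at 0.11 (7 of 11).

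Of 10 regulators of nuclear genes for mitochondria, 1 was positive at 14 days, and their median was -0.15. Myc, a growth regulator, had -0.52 ± 0.22 and Gabpb1, a partner of Gabpa, -0.32 ± 0.18, both with an adjusted p of 0.957. Goblet cell markers were positive in 7 of 7 (median 0.65) and summed to 1356 to 5794 CPM in wild-type and 1873 to 12644 CPM in knock-out libraries. The sum of 12644 CPM was that of knock-out library 1, and the other knock-out libraries lay within the wild-type range. The log2 fold change was positive in enterocyte markers in 1 of 12 (median -0.75) and stem cell markers in 6 of 15 (median -0.05). It was positive in enteroendocrine markers in 8 of 8 (0.42), tuft cell markers in 4 of 6 (0.42) and Paneth cell markers in 2 of 7 (-0.20). Their part in the members' values was not tested.

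Whether the genotype difference itself differed between the times was tested in one fit of all libraries. Of 15458 genes tested none was called (0.0% higher and 0.0% lower), and DESeq2 called 13, none of them a member. The difference was larger at 14 days for 54 of 77 members, against 48.9% of all genes, and the members' median was 0.15 against -0.01. Before adjustment, 2 members passed p under 0.05 with a larger value at 14 days (2.32% of all genes) and none with a smaller one (3.64%). They were Mrps25 (1.0 ± 0.45) and Mrpl22 (0.71 ± 0.33), both with an adjusted p of 0.815. Without wild-type library 1 at 2 days the value of Mrps25 was 0.58. Mrps36 (-0.85 ± 0.45, adjusted p = 0.834) and Mrps21 (-0.52 ± 0.47, adjusted p = 0.888) had negative values, and that of Mrps21 was -0.044 without wild-type library 3 at 14 days. Enterocyte markers were negative in 12 of 12 (median -2.09), and their part in the members' values was not tested. The different share of members with higher values at 2 and at 14 days was therefore not shown to be a change of the genotype difference in any one gene.

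The largest differences were between the times. In wild-type libraries 58 of 77 members were higher at 14 than at 2 days and 2 were lower, at an adjusted p under 0.05, where 27.7% of the 15458 genes tested were called higher and 25.7% lower. The members' median log2 fold change was 1.38, against 0.12 over all genes, and 71 members were positive, against 53.5% of all genes. In knock-out libraries, which share no library with the former, 64 members were higher and 2 lower (25.3% and 25.1% of all genes), with a median of 1.59 against 0.06 and 72 members positive (52.0% of all genes). The same 58 were called higher in both genotypes (20.8% of all genes were), and the 2 lower ones were Mrpl39 and Mrps2 in both (21.5%). Among the 77, Mrps34, Mrpl23 and Mrpl23-ps1 had failed the filter on low counts at 2 days. They entered this fit through their 14 day counts, so the filter favoured a rise in them. Each time was a table of its own, so time after tamoxifen and anything else that differs between the tables cannot be told apart. Satellite-like gene models took at most 0.000323% of a 2 day library and at least 0.0545% of a 14 day library. The mean number of genes detected was 17656 in wild type and 18222 in the knock-out at 2 days, and 23471 and 23424 at 14 days. The part of these differences in the members' values was not tested.

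**Figure D5:**
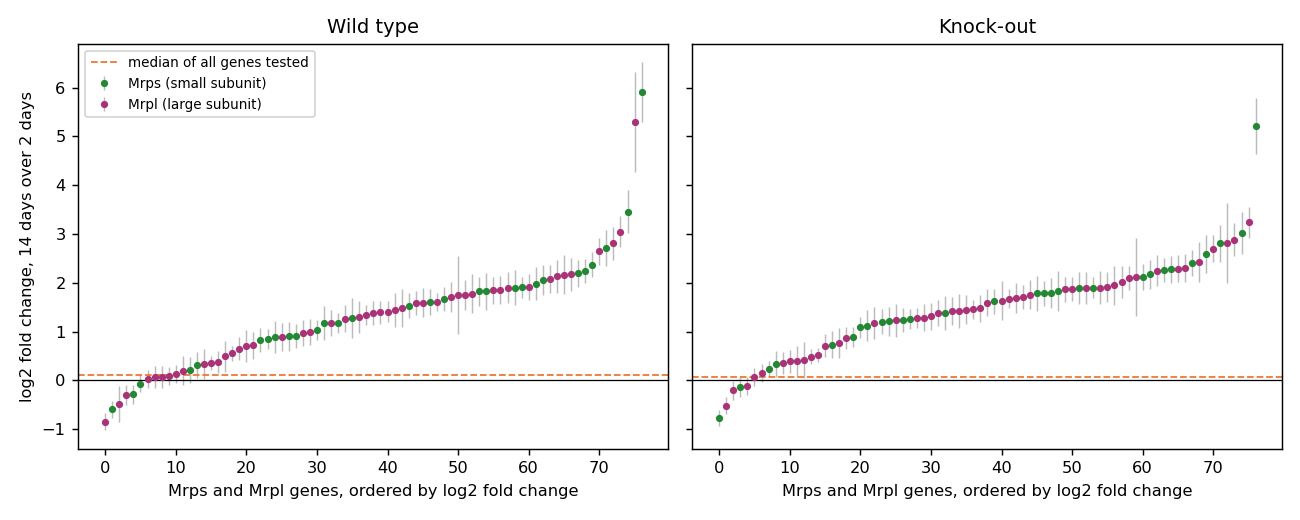
Log2 fold change of 77 Mrps (green) and Mrpl (purple) genes, 14 days over 2 days, with its standard error, ordered by size, in wild type (left) and knock-out (right). The dashed line is the median of all genes tested. In wild type 71 points lie above 0 and in the knock-out 72, and Mrps34 has the highest value in both.

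The share of all counts held by the members was 0.203% ± 0.0347 (SD, n = 4) in wild type and 0.223% ± 0.0583 (n = 4) in knock-out libraries at 2 days. At 14 days it was 0.595% ± 0.0755 (n = 5) and 0.675% ± 0.234 (n = 5). The last mean includes knock-out library 5 at 0.276%, where satellite-like gene models took 46.5% of the counts. Mitochondrially encoded genes took 26.1 to 49.1% of the counts at 2 days and 6.21 to 26.3% at 14 days. As a share of nuclear counts, the members held 0.309, 0.342, 0.689 and 0.819% in the same order of groups. Satellite-like counts were kept in the totals of both shares. Of the rRNAs, in libraries made from poly(A)-selected RNA, mt-Rnr1 held a mean of 5.45% of the counts in wild type and 6.30% in the knock-out at 2 days and 2.24 and 2.95% at 14 days. The means of mt-Rnr2 were 4.76 and 6.28% at 2 days and 5.94 and 6.95% at 14 days.

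Mrps34, a small-subunit protein encoded on chromosome 17 (24895116 to 24897502, plus strand), had the largest log2 fold change between the times. It failed the filter on low counts at 2 days and entered the joint fit through its 14 day counts, so the filter favoured a rise. It had 0, 1, 7 and 5 counts in wild-type and 4, 7, 5 and 10 counts in knock-out libraries at 2 days. At 14 days it had 262, 219, 189, 224 and 157 counts in wild type and 261, 186, 228, 150 and 70 in the knock-out. The log2 fold change was 5.90 ± 0.61 in wild type (adjusted p = 8.66e-08) and 5.22 ± 0.57 in the knock-out (adjusted p = 2.22e-07). Its exons overlap those of Mapk8ip3 on the other strand over 63.4% of their length and those of Nme3 over 37.0%. No source used here gives strand use or the rule for shared reads, and their part in this value was not tested.

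Mrps16, a bacterial-type protein of the small subunit, stood at 3.47 to 5.36 CPM in wild type and 4.59 to 10.8 CPM in knock-out libraries at 2 days. At 14 days it stood at 28.2 to 102 and 22.1 to 88.4 CPM, with no overlap between the times. The log2 fold change was 3.46 ± 0.44 in wild type and 3.02 ± 0.42 in the knock-out. Its exons overlap no other gene.

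Mrpl55, a large-subunit protein encoded on chromosome 11 (59202486 to 59206134, plus strand), had the smallest p in both genotypes. It stood at 4.2, 4.66, 8.49 and 10.8 CPM in wild type at 2 days and at 59.7, 47.2, 83.7, 52.8 and 46.0 CPM at 14 days. The log2 fold changes were 3.05 ± 0.31 in wild type (adjusted p = 7.96e-08) and 3.24 ± 0.32 in the knock-out (adjusted p = 4.26e-08).

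Mrpl20 (2.81 in wild type and 2.88 in the knock-out), Mrps12 (2.71 and 2.81), Mrpl28 (2.65 and 2.70), Mrps18b (2.37 and 2.41), Mrps17 (2.25 and 2.27) and Mrps6 (2.19 and 2.27) also rose in both genotypes. Among members of known site, Mrpl12 of the stalk rose by 1.26 and 1.59, Mrpl45 by 1.41 and 1.28, Mrpl22 and Mrpl24 of the exit tunnel by 1.39 and 2.10 and by 0.65 and 0.71. Mrpl10 of the stalk did not pass the test (0.08, adjusted p = 0.797, and 0.39, adjusted p = 0.169). The pseudogene Mrpl23-ps1 had 0 to 5 counts in every library at 2 days and 6 to 22 at 14 days, and it too passed the filter only through its 14 day counts.

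Mrpl39, a large-subunit protein encoded on chromosome 16 (84717576 to 84735742, minus strand), fell. It had 132, 80.8, 108 and 103 CPM in wild type and 110, 93.5, 124 and 81.2 CPM in knock-out libraries at 2 days. At 14 days it had 66.3, 48.5, 70.5, 57.3 and 52.4 CPM in wild type and 75.6, 69.0, 91.1, 64.2 and 57.5 CPM in the knock-out. The times did not overlap in wild type and overlapped in the knock-out. Its log2 fold change was -0.85 ± 0.18 in wild type (adjusted p = 0.000389) and -0.52 ± 0.18 in the knock-out (adjusted p = 0.0189). The call in the knock-out was lost without knock-out library 1 at 2 days (-0.48, adjusted p = 0.0501), library 3 at 2 days (-0.40, adjusted p = 0.0919) or library 5 at 14 days (-0.43, adjusted p = 0.0627).

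Mrps2, a bacterial-type protein of the small subunit, fell too, from 71.7 to 81.8 CPM in wild type at 2 days to 39.8 to 59.5 CPM at 14 days. Its log2 fold change was -0.59 ± 0.17 in wild type (adjusted p = 0.00561) and -0.77 ± 0.17 in the knock-out (adjusted p = 0.000715). In wild type 17 members passed in neither direction, among them Mrpl16, Mrpl49, Mrps5, Mrpl4 and Mrpl19, with log2 fold changes of -0.48, -0.30, -0.29, 0.10 and 0.13.

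Length moved with this difference as well. In wild type, other protein-coding genes had medians of 1.82, 1.08, 0.39, -0.01 and -0.42 from the shortest to the longest class, and the members had 1.86, 1.80, 0.81, 1.49 and 0.85. With the trend on length taken out, 39 members were called higher and 8 lower in wild type, with a median of 0.70, against 22.4% higher and 25.7% lower of all genes. In the knock-out 46 were called higher and 5 lower, with a median of 0.89, against 21.3% and 22.9% of all genes. In wild type, stem cell markers were called lower in 12 of 15 (median -1.86), goblet markers higher in 6 of 7 (1.86) and enterocyte markers higher in 5 of 12, with all 12 positive (1.06). In the knock-out, stem cell markers were called lower in 11 of 15 (-1.44) and goblet markers higher in 5 of 7 (2.32), while enterocyte markers were negative in 10 of 12, with 1 called higher and 2 lower (-0.69). Their part in the members' values was not tested.

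The same comparison gave unlike results over the rest of the pathway. Nuclear respiratory chain subunits were called higher in 39 of 47 and lower in 1 in wild type (median 1.66), and mitochondrial ribosome proteins with other names in 4 of 5 (1.33). Assembly factors were called higher in 12 and lower in 1 of 25 (0.68), synthetases in 7 and 4 of 20 (0.35) and translation factors in 3 and 4 of 12 (0.04). Among these factors Tsfm rose by 2.12 and Tufm by 1.17, the 2 elongation factors that work as a pair, and Taco1, an activator of Cox1 translation, fell by 1.10. Cytosolic ribosomal proteins were called higher in 32 and lower in 6 of 81 (0.57). Of the regulators, 2 were called higher and 5 lower (median -0.45). Gabpa, an ETS factor, fell by 2.48, Pprc1, a coactivator, by 1.29 and Myc by 1.37. Genes of the mitochondrial genome were called higher in none and lower in 13 of 24 (median -1.95). In the knock-out the respiratory chain subunits were called higher in 40 and lower in 1 (median 1.66), assembly factors in 11 and 1 (0.78), translation factors in 4 and 3 (-0.07), cytosolic ribosomal proteins in 26 and 5 (0.50) and genes of the mitochondrial genome in 2 and 13 (-1.57).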

How the data were processed

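The gene counts were deposited by the authors as 2 tables of raw counts, 1 per time point. The tools named in the submitters' processing notes are STAR 2.4.2a and bcl2fastq 2.20.0.422, with genome build GRCm38. No source used here gives the annotation, counting tool, strand setting or rule for shared reads. Per the labels' protocols, full-length cDNA libraries were made by a SmartSeq method, which names no molecular identifiers, so intervals and limits cover counting error only. Of 43432 identifiers, 42548 matched a GENCODE M21 symbol. Column names gave the genotype, and the tables' names gave the time. Knock-out columns of the 2 day table begin with "Dmin", read here as Dlg1 minus. Columns carry no replicate numbers of the labels, so libraries are numbered by their place in the table.

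Genes passed edgeR's filterByExpr with a minimum count of 10, were scaled by TMM and tested with edgeR's quasi-likelihood test (edgeR 4.0.16, R 4.3.3), with Benjamini-Hochberg adjustment over all genes tested and a threshold of 0.05. Genotypes were compared within each table, and times and the difference of the genotype effects in a joint fit of 18 libraries. CPM was computed here on 1 TMM scale for all libraries, and mean log2 levels use log2(CPM + 0.5). SE is the log2 fold change divided by the root of the F statistic. Exact permutation tests went through every split of the libraries, in Python 3.11.15. Alternatives were RLE and upper-quartile scaling, no filter and a minimum count of 50, DESeq2 1.42.0, limma voom (limma 3.58.1), omission of mitochondrially encoded genes and of each library. A lowess trend on exon length (span 0.3), omission of satellite-like models and a term for the column letter were added after seeing the data.

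In counts simulated on the 14 day table (13991 genes), the test called 43 of 95 genes changed by a log2 of 1, 86 of 96 changed by a log2 of 2 and 7 of 13279 unchanged genes. On the 2 day table (13031 genes) it called 34 of 88, 76 of 108 and 7 of 12559. Each gene was drawn on its own, so shifts shared by many genes of a library, as seen in the real tables, were not simulated. Changes below a log2 of 1 were not simulated either. The members and lists were chosen with earlier results of these data known. Members were named if called (at most 12 per direction), among the 5 smallest p per direction and comparison, among the 5 highest or lowest levels, of a stated role, or without overlap between genotypes; up to 4 genes per other list were named by p.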

Additional observations from a re-analysis of the deposited data

Results flagged for a closer look

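In 160 groups of 4 or 5 libraries, the gap between the highest or lowest library and its nearest neighbour was compared with the range of the group (Dixon's test at 95%). About 1 in 20 groups is picked by chance, and the members of a library are not independent. Knock-out library 5 at 14 days had the lowest share of counts in Mrps and Mrpl genes, 0.276%. Satellite-like gene models took 46.5% of that library's counts and are part of this total. On the TMM scale its mean log2 level of the members was 5.31, against 5.37 to 6.23 in wild-type libraries of that time. Knock-out library 3 at 2 days had the highest mean log2 level, 4.90.

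Wild-type library 3 at 14 days stood above its group in 20 genes. The 160 groups covered only part of the 81 members, so this is not a count over all of them. Among small-subunit genes these were Mrps12 (161 CPM), Mrps18c (141 CPM), Mrps28 (127 CPM), Mrps16 (102 CPM), Mrps25 (92.2 CPM), Mrps21 (86.5 CPM) and Mrps23 (63.4 CPM). Among large-subunit genes they were Mrpl12 (278 CPM), Mrpl54 (178 CPM), Mrpl20 (160.1 CPM), Mrpl36 (149 CPM), Mrpl34 (128 CPM), Mrpl45 (109 CPM), Mrpl14 (106 CPM), Mrpl51 (95.9 CPM), Mrpl58 (91.9 CPM), Mrpl24 (72.9 CPM), Mrpl16 (72.7 CPM), Mrpl41 (68.4 CPM) and Mrpl27 (60.8 CPM). Mrps18b stood apart in wild-type library 1 of that time, at 49.6 CPM.

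At 2 days, wild-type library 1 stood above its group in Mrpl16 (112 CPM), Mrps18c (38.6 CPM), Mrps23 (38.4 CPM) and Mrps12 (22.1 CPM) and below it in Mrps18a (13.3 CPM). Knock-out library 3 stood above its group in Mrpl19 (68.2 CPM), Mrpl1 (34.3 CPM) and Mrps6 (27.8 CPM).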

How the results depend on the processing

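No member was called between genotypes, or for the difference of the genotype effects, in any alternative run. The members' median log2 fold change stayed positive in all of them except without knock-out library 3 at 2 days. With each library left out, the median ranged from -0.02 to 0.19 at 2 days (36 to 65 members positive), from 0.22 to 0.56 at 14 days (72 to 76 positive) and from 0.04 to 0.34 for the difference of the effects (42 to 69 positive). The lowest median of the difference came without knock-out library 1 and the highest without wild-type library 3, both at 14 days. The ranges for time were 1.14 to 1.49 in wild type (54 to 59 members called higher, 2 lower, with 25.8 to 27.8% and 23.7 to 25.9% of all genes) and 1.41 to 1.75 in the knock-out (59 to 65 higher, 1 to 2 lower, with 23.0 to 28.0% and 22.5 to 26.0% of all genes). In the knock-out, Mrps2 alone was called lower, and Mrpl39 lost its call, without knock-out libraries 1 or 3 at 2 days or 5 at 14 days.

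With the length trend removed, the time median was 0.70 in wild type and 0.89 in the knock-out, with 8 and 5 members called lower. Without knock-out library 5 as well, it was 0.70 and 0.99, with 8 called lower in wild type. Mrps5 then stood at 0.019 and 0.032 in wild type and 0.19 and 0.32 in the knock-out, above 0. With each library left out, its value in the knock-out ranged from -0.25 to 0.053, the latter without knock-out library 3 at 2 days. Mrpl4 ranged from -0.22 to 0.054 in the knock-out, and was above 0 without that library or without library 5 at 14 days (0.0038). Its difference of effects was 0.0025 with the length trend and library 5 removed. Between times in wild type, Mrpl16 ranged from -0.82 to 0.13. Between genotypes at 2 days, Mrpl16 ranged from -0.78 to 0.015, Mrpl27 from -0.55 to 0.066, Mrpl51 from -0.65 to 0.29 and Mrps23 from -0.38 to 0.10. Each of these upper ends was reached without wild-type library 1 at 2 days. Apart from the omission of libraries and the length trend, the cause was not tested.

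As a share of nuclear counts, the members held 0.309% in wild type and 0.342% in the knock-out at 2 days and 0.689% in wild type at 14 days. Upper-quartile scaling moved the median of all genes between times in wild type from 0.12 to 0.25. Without a filter on low counts, over 35326 genes, that median was 0.833 in wild type and 0.815 in the knock-out. Over all genes, edgeR without a filter called 7 genes at 2 days, 2 at 14 days and 98 for the difference of effects, and DESeq2 13, 1 and 13, where edgeR with the filter called 0. No paired analysis was possible because the columns carry no replicate numbers of the labels. Depth limits Mrpl53 and the Mrps36 pseudogenes, with at most 7 counts in a library.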
